A study of Homo sapiens with 40 samples.

Results

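The set described here consists of 7 of the 55765 gene symbols counted in the series: TPT1, NACA, BTF3, GNB2L1, NPM1, NAP1L1 and VIM. They were chosen by name, as mRNAs that are known or listed as terminal oligopyrimidine (TOP) mRNAs but encode no ribosomal protein, and each was followed through all 12 groups of libraries. The data are RNA-Seq read counts from 40 poly(A)-selected libraries of HEK293, an established human embryonic kidney cell line. In the RNA immunoprecipitation experiment (RIP-Seq, n = 3 per group), RNA recovered with endogenous eIF4A1 (eIF4A1 IP), eIF4A2 (eIF4A2 IP) or DDX6 (DDX6 IP) was set beside total RNA of untransfected cells (RIP total RNA). In the gradient experiment (n = 4 per group), cells received control siRNA or CNOT1 siRNA and were sampled as input RNA, as pooled subpolysomal fractions 1 to 5 and as pooled polysomal fractions 6 to 11 of a sucrose gradient. In the last experiment (n = 2 per group), TNRC6A and TNRC6B were knocked down together (TNRC6A/B siRNA), and total RNA of these cells was set beside that of cells given control siRNA. All groups are the same cell line with no engineered allele, and the knockdowns lowered their targets without removing them.

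TOP mRNAs begin, directly after the cap, with a C followed by an unbroken run of C and U. Most of them encode ribosomal proteins and translation elongation factors, and their entry into polysomes is known to depend on growth signalling through mTOR and on the cap-binding protein LARP1. When such an mRNA is not being translated it sits near the top of a gradient, free of polysomes. eIF4A1 and eIF4A2 are DEAD-box helicases of translation initiation, DDX6 is a related helicase of repressed and decaying mRNAs, CNOT1 is the scaffold of the Ccr4-Not deadenylase complex, and the TNRC6 proteins link Argonaute to that complex.

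The sequence around each annotated transcription start is shown because the start is what defines a TOP mRNA. Each line holds the last 10 bases before the start and the 20 bases from the start on (GENCODE annotation on GRCh37, read 5′ to 3′ on the strand of the gene). Capitals mark the pyrimidine run that begins with a C and touches the start, also where it begins before the start. At the other VIM start only the bases from the start on are marked, although the base before it is also a C. TPT1 lies at chr13:45915299-45915328 on the minus strand, NACA at chr12:57119064-57119093 minus, BTF3 at chr5:72794257-72794286 plus, GNB2L1 at chr5:180670887-180670916 minus, NPM1 at chr5:170814843-170814872 plus, NAP1L1 at chr12:76478446-76478475 minus and VIM at chr10:17270230-17270259 plus. The line for the other VIM start is a further coding transcript of the gene at chr10:17271267-17271296 plus.
TPT1: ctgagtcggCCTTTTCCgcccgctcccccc
NACA: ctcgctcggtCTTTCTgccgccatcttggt
BTF3: cttccggCCTCCCTTTagctgccatcttgc
GNB2L1: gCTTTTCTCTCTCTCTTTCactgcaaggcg
NPM1: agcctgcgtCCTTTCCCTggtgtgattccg
NAP1L1: gctcttgggtCTTTTTTagcgccatctgct
VIM: atcgtgatctgggaggcccacgtatggcgc
VIM, other start: gggtccagtcCTCTgccactctcgctccga

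Counted from the start itself, the run was 7 bases long in TPT1, 6 in NACA, 6 in BTF3, 9 in GNB2L1, 8 in NPM1 and 7 in NAP1L1. A C followed by at least 4 further pyrimidines stood at the main annotated start of 6 of the 7 genes. The same held for 4.59% of 19894 protein-coding genes, for 35 of 47 large subunit and 25 of 32 small subunit ribosomal protein genes, and for 10 of 11 translation factor genes listed as TOP mRNAs. VIM was the exception. Its main annotated start is a G, its other start carries a C with only 3 pyrimidines behind it, and 0 of its 4 coding transcripts met the rule. Among the coding transcripts of the other members, 1 of 9 of TPT1, 3 of 17 of NACA, 1 of 6 of BTF3, 5 of 18 of GNB2L1, 1 of 13 of NPM1 and 6 of 18 of NAP1L1 met it. Which start the cells used was not measured, so these letters describe the annotation.

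The members differ in function. NACA and BTF3 are the alpha and beta subunits of the nascent polypeptide-associated complex, which meets new chains at the ribosome exit. GNB2L1, now named RACK1, is a scaffold protein of the small ribosomal subunit. NPM1, a nucleolar protein of ribosome biogenesis, and NAP1L1 are histone chaperones. TPT1, the translationally controlled tumour protein, is a small conserved growth-related protein, and VIM is the intermediate filament protein vimentin.

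Library depth ran from 15353317 to 46018900 counted reads. The 7 mRNAs together took between 0.297% and 0.994% of a library. Levels are given as CPM, read counts brought to a common library total and scaled by edgeR's TMM factors, and a fraction or IP is scaled to its own total. A level is therefore a share of the RNA in that fraction or IP, not an amount per cell, and changes in a share cannot be told apart from changes in how much RNA the fraction held. Levels are not ranked between genes, because the annotated transcript lengths of NACA, TPT1 and NAP1L1 depend on which isoform is meant. Symbols annotated as pseudogenes of a member held at most 1.05% of that member's count, the highest being for NAP1L1. The snoRNA genes SNORD95 and SNORD96A lie within GNB2L1 on its strand, SNORA31 lies within TPT1, PRIM1 overlaps NACA on the same strand and VIM-AS1 overlaps VIM on the opposite strand, and how the authors' counting treated such overlaps and the strand is not given in the sources used here. NEFM, NEFL, INA, LIN28B and GATA3, neuronal and progenitor genes known from HEK293, were above 1 CPM in all 40 libraries. PTPRC, CD3E, ALB, MYH7 and INS were above 1 CPM in 0 of the 40 libraries, and the kidney gene PAX2 passed 1 CPM in 7.

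The targeted genes were checked first. CNOT1 averaged 672 CPM in control siRNA input and 39.6 CPM in CNOT1 siRNA input, and 280 against 80.8 CPM in the subpolysomal fractions. In the polysomal fractions, a library of each group went against its label. Replicate 3 as labelled control siRNA polysomal had CNOT1 at 28.3 CPM, while its group otherwise lay at 470 to 501 CPM, and replicate 3 as labelled CNOT1 siRNA polysomal had 631 CPM, while its group otherwise lay at 24 to 31.6 CPM. The labels were kept, and the polysomal tests of the 7 mRNAs are also given without these 2 libraries. TNRC6A averaged 183 CPM with control siRNA and 52.6 CPM with TNRC6A/B siRNA, and TNRC6B 70.3 against 22 CPM.

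In the RIP experiment, all 7 mRNAs made up a smaller share of the RNA bound by eIF4A1 and by eIF4A2 than of total RNA, with no overlap between the libraries of the compared groups. NPM1 and VIM fell furthest and NAP1L1 least in the eIF4A1 IP. In the DDX6 IP 6 of the 7 were lower, and TPT1 was not called. The 3 comparisons share the same total RNA libraries, so they are not independent of each other.

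TPT1 stood at 888, 965 and 828 CPM in total RNA and at 351, 606 and 479 CPM in the eIF4A1 IP. It stood at 339, 395 and 274 CPM in the eIF4A2 IP and at 578, 1010 and 719 CPM in the DDX6 IP. Each eIF4A1 and eIF4A2 library thus lay below each total RNA library, whereas a DDX6 library was the highest of all. TPT1 was lower in the eIF4A1 IP by a log2 fold change of -0.90 (SE 0.233, edgeR FDR 0.0055) and in the eIF4A2 IP by -1.41 (SE 0.235, edgeR FDR 0.000264). In the DDX6 IP the difference from total RNA was -0.22 on the log2 scale (95% CI -0.716 to 0.278, edgeR FDR 0.458).

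NACA lay at 1140, 1170 and 1010 CPM in total RNA, at 315, 573 and 452 CPM in the eIF4A1 IP, at 377, 421 and 261 CPM in the eIF4A2 IP and at 725, 848 and 650 CPM in the DDX6 IP. BTF3, its partner subunit, lay at 765, 756 and 655 CPM in total RNA, at 245, 306 and 275 CPM in the eIF4A1 IP, at 245, 231 and 199 CPM in the eIF4A2 IP and at 340, 407 and 337 CPM in the DDX6 IP. In both genes total RNA was highest and the DDX6 IP came next, with every library of the one above every library of the other. The log2 fold changes against total RNA were -1.31 (SE 0.226, edgeR FDR 0.000336) for NACA and -1.40 (SE 0.149, edgeR FDR 9.31e-06) for BTF3 in the eIF4A1 IP, and -1.65 and -1.69 in the eIF4A2 IP. In the DDX6 IP BTF3 fell by 1.005 on the log2 scale (edgeR FDR 0.000158), whereas the value of NACA, -0.58, lay just inside the threshold (edgeR FDR 0.0472). NACA was no longer called after leaving out any one of 7 of the 12 libraries (FDR up to 0.145). Nor was it called when libraries were scaled by their totals alone (-0.435, FDR 0.0821).

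GNB2L1 had 2470, 2350 and 1600 CPM in total RNA and 677, 783 and 716 CPM in the eIF4A1 IP. It had 575, 522 and 659 CPM in the eIF4A2 IP and 1010, 1290 and 1050 CPM in the DDX6 IP. Its eIF4A2 libraries all lay below its eIF4A1 libraries, which all lay below its DDX6 libraries. Against total RNA, GNB2L1 changed by -1.56 (eIF4A1 IP), -1.87 (eIF4A2 IP) and -0.94 (DDX6 IP) on the log2 scale, with edgeR FDR of 2.33e-05, 5.71e-06 and 0.00126.

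NPM1 had 2100, 2670 and 1870 CPM in total RNA, and its 9 IP libraries all lay between 537 and 765 CPM. NAP1L1 had 942, 1030 and 980 CPM in total RNA and between 579 and 796 CPM in the 9 IP libraries. VIM had 544, 487 and 410 CPM in total RNA and between 105 and 162 CPM in the 9 IP libraries. For NPM1 the log2 fold changes against total RNA were -1.90 (eIF4A1 IP), -1.81 (eIF4A2 IP) and -1.54 (DDX6 IP), and for VIM -1.77, -1.94 and -1.67 in the same order. NAP1L1 showed the smallest changes in the eIF4A IPs, at -0.66 with eIF4A1 and -0.67 with eIF4A2. Its DDX6 value of -0.395 (edgeR FDR 0.0261) was no longer called after leaving out any one of 4 of the 12 libraries (FDR up to 0.0872). That call was also lost when libraries were scaled by their totals alone (-0.246, FDR 0.15). The same held without a filter on low counts (-0.354, FDR 0.21) and with only the compared libraries in the fit (-0.37, FDR 0.0607).

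**Figure D1:**
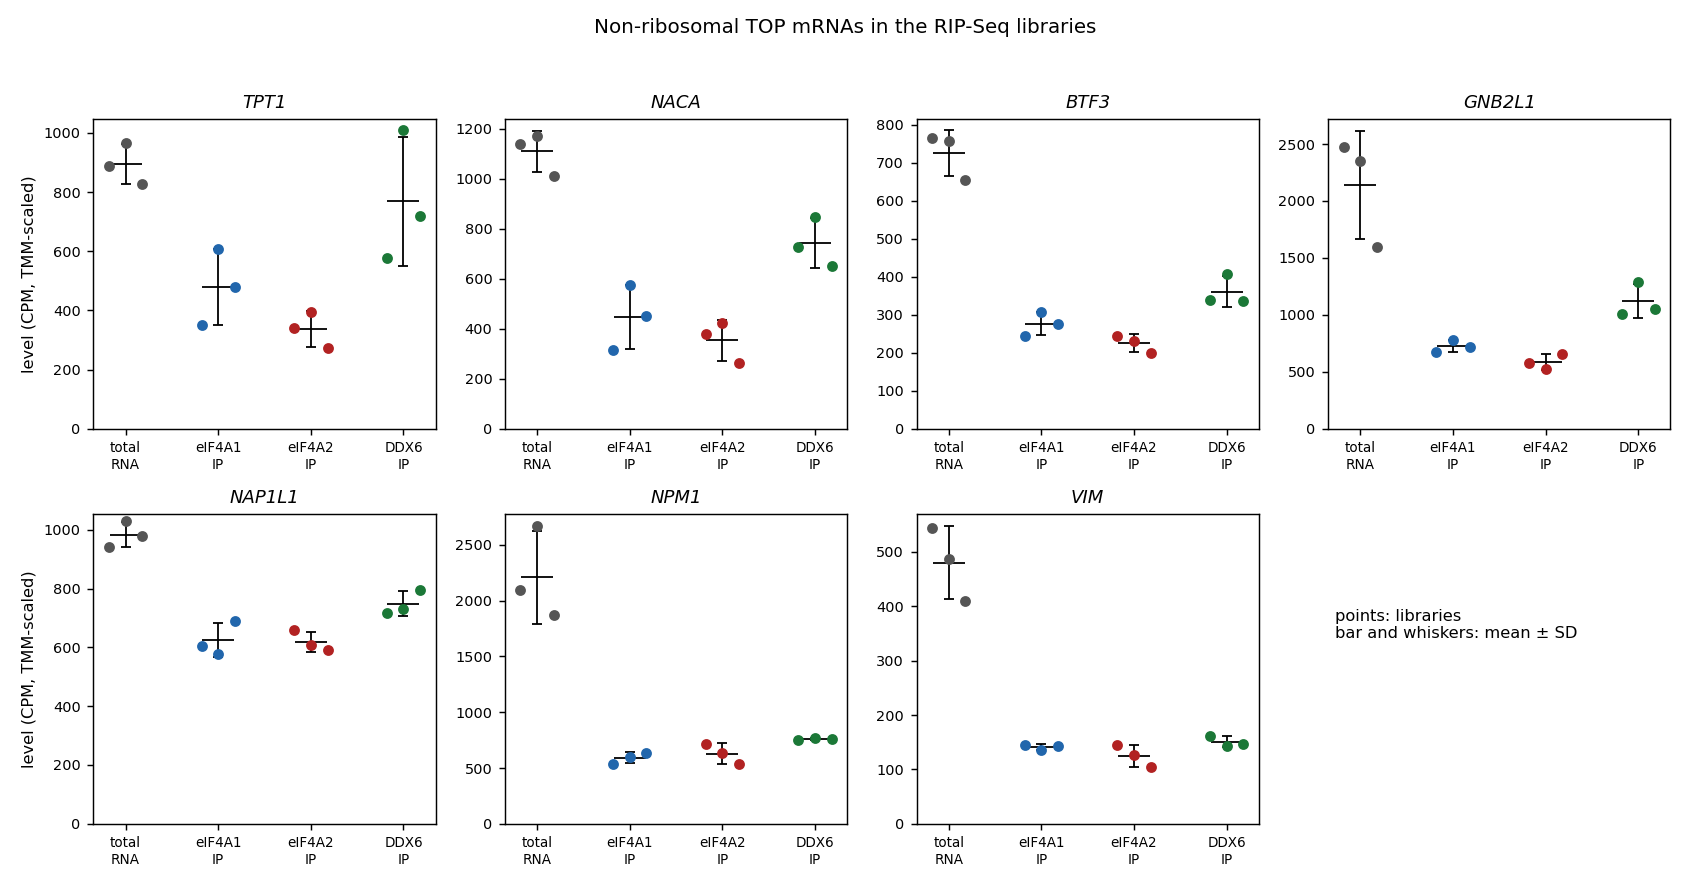
Level of each of the 7 mRNAs in the 12 RIP-Seq libraries, in CPM scaled by TMM factors (y axis, from 0), by group (x axis); each point is 1 library, and the bar and whiskers are the group mean and SD. Total RNA lies above the eIF4A1 and eIF4A2 IPs in every panel, while the DDX6 IP of TPT1 reaches 1010 CPM and overlaps total RNA.

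Over all 17474 genes tested, 26.5% were lower in the eIF4A1 IP, 25.8% in the eIF4A2 IP and 23.3% in the DDX6 IP, against 7 of 7, 7 of 7 and 6 of 7 of these mRNAs. The median log2 fold change of the 7 was -1.397, -1.689 and -0.94 in the 3 IPs, beside all-gene medians of 0.038, 0.006 and 0.009. Ribosomal protein mRNAs, the main class of TOP mRNAs, were lower in the eIF4A1 IP in 34 of 47 cases for the large subunit (median -0.844) and 16 of 32 for the small subunit (median -0.599). In the eIF4A2 IP the counts were 44 of 47 (median -1.542) and 25 of 32 (median -1.233). In the DDX6 IP they were 8 of 47 (median -0.209) and 3 of 32 (median 0.008). The large subunit count with DDX6 rose to 22 of 47 in the fit with the replicate number as a block. Of the 10 translation factor TOP mRNAs tested, 9 were lower in each eIF4A IP and 6 in the DDX6 IP. EEF2, the elongation factor of ribosome translocation, showed log2 fold changes of -1.763, -2.177 and -1.216 in the eIF4A1, eIF4A2 and DDX6 IPs. PABPC1, the poly(A)-binding protein, rose instead, by 1.546, 1.142 and 2.459 in the same order.

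Set against each other, the IPs differed for some of the 7 mRNAs. In the eIF4A2 IP against the DDX6 IP, 4 of the 7 were lower, where 11.3% of all genes were. TPT1 changed by -1.19 on the log2 scale (SE 0.234, edgeR FDR 0.00519), NACA by -1.07 (FDR 0.00691), GNB2L1 by -0.93 (FDR 0.00572) and BTF3 by -0.68 (FDR 0.00765), each without overlap between the libraries. NPM1 (-0.267, 95% CI -0.627 to 0.092), NAP1L1 (-0.275, CI -0.56 to 0.01) and VIM (-0.265, CI -0.588 to 0.058) were not called. In the same comparison 45 of 47 large subunit, 30 of 32 small subunit and 9 of 10 translation factor mRNAs were lower, with medians of -1.347, -1.239 and -0.985.

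Between the eIF4A2 IP and the eIF4A1 IP, edgeR called 0 of the 7, with 1.06% of all genes called in either direction. Of the 7, 1 had an unadjusted p under 0.05, and DESeq2 called 0. That gene was TPT1, at -0.51 on the log2 scale (95% CI -1.008 to -0.011, edgeR FDR 0.271), and it was called in the fit blocked on the replicate number, at -0.49 with an edgeR FDR of 0.0487. That fit called 8.7% of all genes lower, and 1 of 7 is close to this share. The other 6 lay between -0.34 for NACA (CI -0.821 to 0.14) and 0.088 for NPM1 (CI -0.271 to 0.448). Between the DDX6 IP and the eIF4A1 IP, edgeR again called 0 of the 7, with 0.0916% of all genes called. Here 4 of the 7 had an unadjusted p under 0.05, all higher in the DDX6 IP, and DESeq2 called 2 higher, with 3.09% of the genes it gave an adjusted p higher. The fit with the replicate block called 3, namely TPT1 at 0.677 (edgeR FDR 0.0207), NACA at 0.739 (FDR 0.021) and GNB2L1 at 0.618 (FDR 0.0384), with 6.08% of all genes called higher in that fit. Without the block the values of these 3 were 0.682, 0.73 and 0.622.

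Within the gradients of control siRNA cells, the 7 mRNAs divided between the polysomal and the subpolysomal side. TPT1 made up a far larger share of subpolysomal than of polysomal RNA, NPM1 and VIM a larger share of polysomal RNA, and NACA, BTF3, GNB2L1 and NAP1L1 lay between these extremes. Of the 7, 3 were higher in the polysomal fractions, where 34.8% of all genes were, and 3 were lower, where 37% of all genes were. As many members lay on one side as on the other, close to the all-gene shares.

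TPT1 in the subpolysomal fractions of control siRNA cells had 1590, 2080, 2090 and 1930 CPM, and in the polysomal fractions 373, 399, 298 and 395 CPM. The groups were far apart, with the lowest subpolysomal library well above the highest polysomal one. The polysomal level was 0.191 times the subpolysomal level (log2 fold change -2.39, SE 0.117, edgeR FDR 1.69e-14). Without both replicate 3 libraries the log2 fold change was -2.29.

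NPM1 showed the opposite distribution, with 1010, 1180, 897 and 917 CPM in the subpolysomal and 2630, 3250, 2420 and 2870 CPM in the polysomal fractions. VIM had 235, 286, 221 and 212 CPM in the subpolysomal and 496, 510, 453 and 460 CPM in the polysomal fractions. The libraries of the 2 fractions did not overlap for either gene. NPM1 was 2.79-fold higher in polysomal RNA (edgeR FDR 5.72e-11) and VIM 2.01-fold higher (edgeR FDR 2.38e-09), and without both replicate 3 libraries the log2 values were 1.555 and 1.048.

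GNB2L1 (2420, 2830, 3740 and 3070 CPM subpolysomal, 2320, 2440, 1760 and 2120 CPM polysomal) was lower in polysomal RNA by -0.482 on the log2 scale (edgeR FDR 0.000745). NAP1L1 (1110, 1470, 854 and 1060 CPM subpolysomal, 782, 929, 684 and 869 CPM polysomal) was lower by -0.459 (edgeR FDR 0.00432). In both genes a polysomal library overlapped the subpolysomal range. Of the NAC subunits, BTF3 was higher in polysomal RNA by 0.425 (edgeR FDR 0.00306), with 633 to 1040 CPM polysomal and 571 to 726 CPM subpolysomal, so that its groups overlapped too. This overlap came from the polysomal library labelled replicate 3 alone, and the other polysomal libraries lay at 893 to 1040 CPM. With only the compared libraries in the fit this call was lost (0.357, FDR 0.108). NACA had -0.157 (95% CI -0.391 to 0.077, edgeR FDR 0.22), and the difference between BTF3 and NACA was not tested. Without both replicate 3 libraries GNB2L1 had -0.381 (FDR 0.00408), NAP1L1 -0.37 (FDR 0.011), BTF3 0.564 (FDR 1.57e-05) and NACA -0.02 (FDR 0.849), so the same 3 of the 7 were higher and the same 3 lower.

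**Figure D2:**
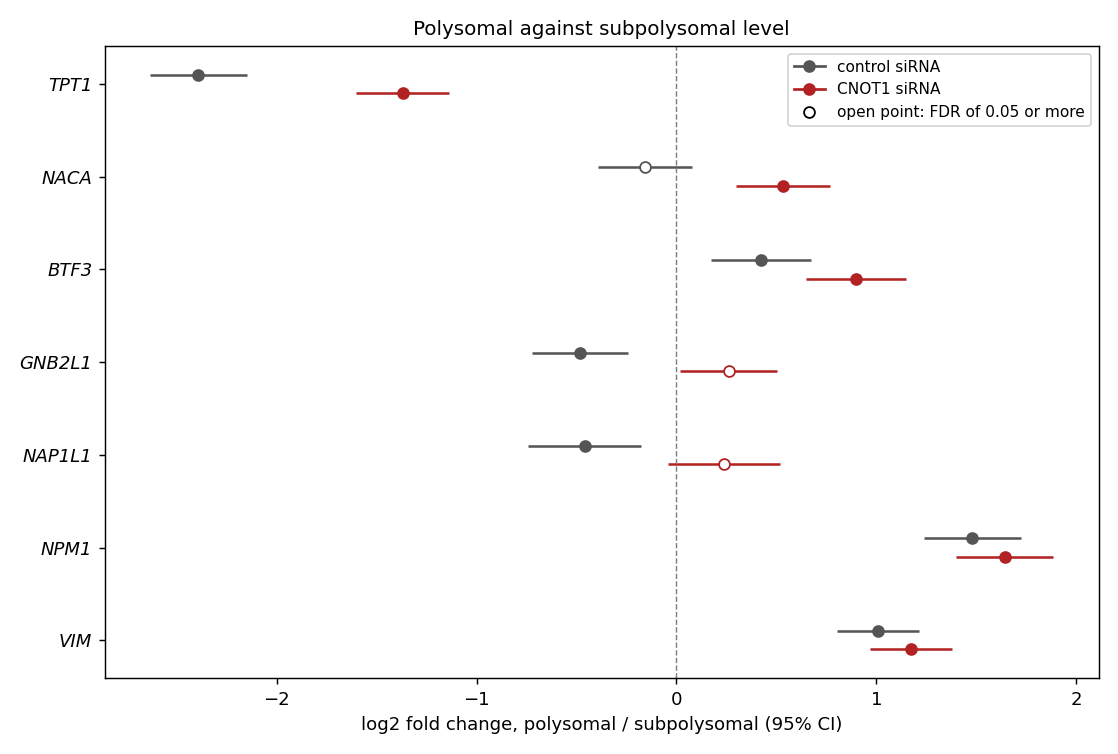
Log2 fold change of the polysomal over the subpolysomal level of each mRNA (x axis) with its 95% confidence interval, in control siRNA and in CNOT1 siRNA cells; open points have an edgeR FDR of 0.05 or more. The CNOT1 siRNA point lies to the right of the control siRNA point for all 7 mRNAs, a difference called for TPT1, NACA, GNB2L1 and NAP1L1, and one that turned in sign for NPM1 and VIM with library totals alone.

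The ribosomal protein mRNAs lay on the subpolysomal side almost throughout, with 46 of 47 large subunit (median -1.259) and 30 of 32 small subunit mRNAs (median -1.581) lower in polysomal RNA of control siRNA cells. Translation factor TOP mRNAs were lower in 9 of 10 cases (median -1.157). PABPC1 had a log2 fold change of -3.619, EEF1A1, the main elongation factor of tRNA delivery, -1.952, and EIF3L, a subunit of initiation factor eIF3, -1.694. TPT1 thus had a value within the range of these classes. BTF3, at 0.425, lay within that of the small subunit mRNAs, which reached 0.729, while NPM1 and VIM lay above all of these mRNAs. Known regulators of TOP mRNAs such as LARP1 and mTOR pathway genes, whose own starts were not examined, were higher in polysomal RNA in 13 of 18 cases (median 0.584). Without both replicate 3 libraries the lower counts were 45 of 47, 29 of 32 and 9 of 10, with medians of -1.085, -1.41 and -1.038, and 13 of the 18 regulators were higher.

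In CNOT1 siRNA cells, 4 of the 7 were higher in polysomal than in subpolysomal RNA, with 34.1% of all genes higher, and 1 was lower, with 34.7% of all genes lower. TPT1 remained the lower one, at -1.37 on the log2 scale (SE 0.113, edgeR FDR 1.57e-10). NACA was higher by 0.532 (FDR 0.000226), BTF3 by 0.899 (FDR 5.57e-07), NPM1 by 1.641 (FDR 1.56e-11) and VIM by 1.172 (FDR 2.67e-10). GNB2L1 (0.261, FDR 0.0509) and NAP1L1 (0.239, FDR 0.122) were not called, and turned to -0.046 and -0.062 when libraries were scaled by their totals alone. With that scaling NACA dropped to 0.229 and was no longer called (FDR 0.0522). Without both replicate 3 libraries the same 5 were called, TPT1 at -1.381, NACA at 0.491, BTF3 at 0.854, NPM1 at 1.672 and VIM at 1.133, and GNB2L1 had 0.242 (FDR 0.0536) and NAP1L1 0.123 (FDR 0.378). GNB2L1 was called at 0.273 (FDR 0.0257) when the replicate block was added to that fit, and also after leaving out any one of 12 of the 24 libraries (FDR down to 0.0226).

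Knockdown of CNOT1 lowered the share of 5 of the 7 mRNAs in input RNA, namely TPT1, NACA, BTF3, GNB2L1 and NAP1L1. NPM1 and VIM were not called. Among all genes 15.6% were lower. The same 5 genes were lower in the subpolysomal fractions, where 19.1% of all genes were lower. Their log2 fold changes there were larger than in input RNA, a difference that was not tested. In the polysomal fractions edgeR called 0 of the 7 and 0% of all genes, with the replicate 3 libraries that went against their labels included. Without those libraries NACA and BTF3 were called lower, with values and all-gene shares given below.

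In input RNA TPT1 lay at 677, 619, 706 and 697 CPM with control siRNA and at 485, 468, 471 and 490 CPM with CNOT1 siRNA, a log2 fold change of -0.496 (SE 0.111, edgeR FDR 0.00673). NACA lay at 1080, 1020, 1070 and 1050 CPM against 825, 804, 753 and 799 CPM, a change of -0.405 (FDR 0.0136). GNB2L1 lay at 2220, 2180, 2260 and 2090 CPM against 1670, 1740, 1540 and 1690 CPM, a change of -0.395 (FDR 0.0169). In each of these genes the highest CNOT1 siRNA library was below the lowest control library. BTF3 changed from 692 to 727 CPM down to 519 to 569 CPM, by -0.368 (FDR 0.0271), and NAP1L1 from 896 to 950 CPM down to 654 to 729 CPM, by -0.437 (FDR 0.0216). NPM1 ranged from 2170 to 2490 CPM with control and from 1940 to 2360 CPM with CNOT1 siRNA, and its change of -0.141 had a 95% CI of -0.379 to 0.097. VIM ranged from 482 to 534 and from 418 to 469 CPM, and its change of -0.178 had a 95% CI of -0.38 to 0.025 (FDR 0.168). VIM was called in 2 other fits, at -0.162 (FDR 0.0151) with only the input libraries and at -0.179 (FDR 0.0495) with the replicate block and without both polysomal replicate 3 libraries, which called 23.9% of all genes lower. The input count was 2 without CNOT1 siRNA input replicate 3 and 3 without CNOT1 siRNA input replicate 4.

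In the subpolysomal fractions of CNOT1 siRNA cells TPT1 lay at 1040, 1060, 796 and 871 CPM, below all 4 control libraries, and the log2 fold change was -1.03 (SE 0.112, edgeR FDR 8.92e-07). NACA lay at 777, 799, 817 and 692 CPM, against 1220, 1470, 1380 and 1290 CPM in control libraries (log2 fold change -0.80, FDR 2.15e-05). GNB2L1 lay at 1780, 1600, 1830 and 1640 CPM and changed by -0.82 (FDR 2.21e-05). NAP1L1, at 648, 737, 612 and 557 CPM, changed by -0.81 (FDR 0.00013), and BTF3, at 454, 443, 458 and 361 CPM, by -0.60 (FDR 0.000695). None of the CNOT1 siRNA libraries of these 5 genes reached the control range. NPM1 stood at 899, 1020, 863 and 729 CPM and changed by -0.19 (95% CI -0.428 to 0.048), and VIM stood at 198, 215, 224 and 183 CPM and changed by -0.218 (95% CI -0.422 to -0.015, FDR 0.0911). With the replicate block and without both polysomal replicate 3 libraries VIM was called here too, at -0.212 (FDR 0.0227), where 27.5% of all genes were lower. For NPM1 and VIM the groups overlapped and the sign turned, to 0.092 and 0.069, when libraries were scaled by their totals alone.

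In the polysomal fractions the CNOT1 siRNA libraries of TPT1 lay at 335, 360, 380 and 381 CPM, inside the control range. The lowest library of that range was the one labelled replicate 3. NACA lay at 973, 1120, 1230 and 1140 CPM against 1220, 1410, 879 and 1300 CPM with control siRNA. The log2 fold changes of the 7 ran from -0.127 for BTF3 to -0.009 for TPT1, and with all libraries included all groups overlapped. For NACA, BTF3 and NAP1L1 the overlap came only from the libraries labelled replicate 3, which went against their labels. edgeR called 0% of all genes here, 0 of the 7 had an unadjusted p under 0.05, and DESeq2 called 0 as well. Over all genes, 1123 had an unadjusted p under 0.05. Without the 2 libraries labelled replicate 3, edgeR called 2925 genes higher (17.1%) and 2501 lower (14.6%), and 2 of the 7 were lower, NACA by -0.285 (FDR 0.0224) and BTF3 by -0.309 (FDR 0.0257). NAP1L1 then had -0.317 (95% CI -0.592 to -0.042, FDR 0.0726) and TPT1 -0.117 (CI -0.347 to 0.112), while GNB2L1, NPM1 and VIM lay between -0.192 and -0.071 (FDR 0.229 to 0.701). With the replicate block as well, NAP1L1 was also called lower, at -0.313 (FDR 0.0312), where 17% of all genes were.

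**Figure D3:**
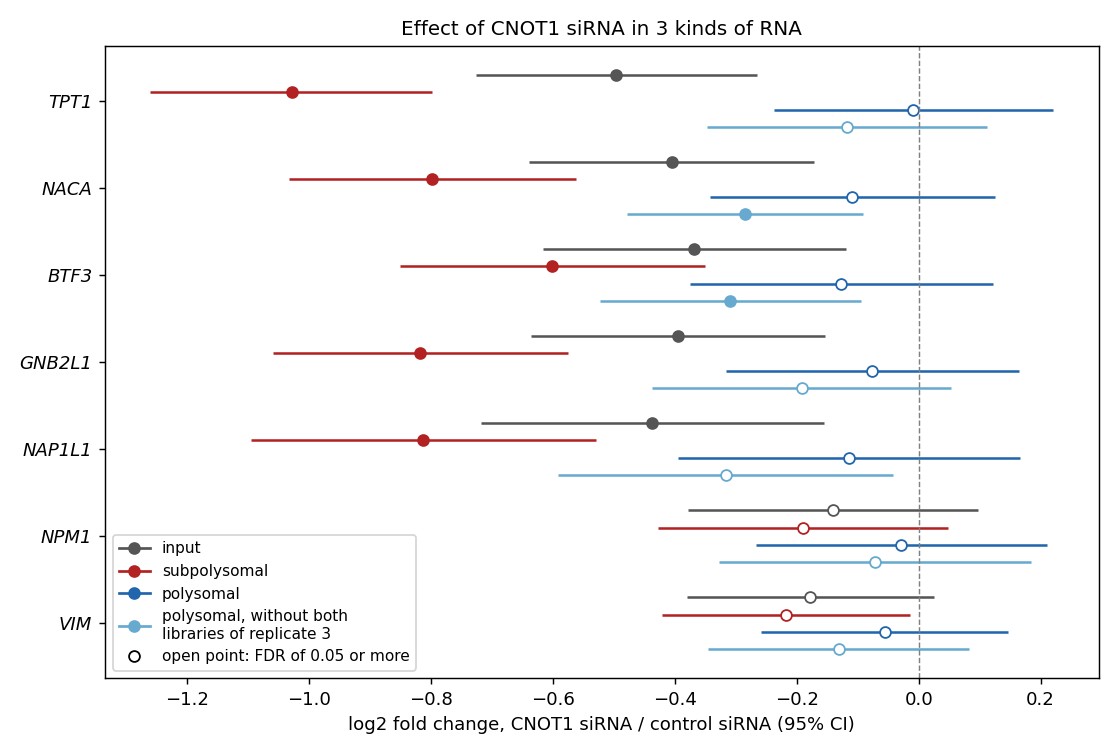
Log2 fold change of CNOT1 siRNA over control siRNA for each mRNA (x axis) with its 95% confidence interval, in input, subpolysomal and polysomal RNA, the last also without both libraries of replicate 3; open points have an edgeR FDR of 0.05 or more. For TPT1, NACA, BTF3, GNB2L1 and NAP1L1 the subpolysomal value is the furthest from 0, down to -1.029 for TPT1, while every interval of NPM1 crosses 0.

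The ribosomal protein mRNAs moved in the same direction as the 5 genes. In the subpolysomal fractions 45 of 47 large subunit (median -1), 30 of 32 small subunit (median -1.028) and 10 of 10 translation factor TOP mRNAs (median -1.077) were lower after CNOT1 knockdown, beside a median of -0.798 for the 7 and -0.067 for all genes. RPL22 changed by -1.321 and RPSA by -1.368. In input RNA 42 of 47, 29 of 32 and 5 of 10 were lower, with medians of -0.606, -0.649 and -0.329. With libraries scaled by totals alone the subpolysomal counts were 39, 25 and 10, and 5 of the 7 were still lower, with a median of -0.514 beside an all-gene median of 0.214.

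Whether the balance between the fractions itself differed was tested by comparing the polysomal to subpolysomal ratio between the siRNAs, as an interaction term. It was higher after CNOT1 knockdown for 4 of the 7, where 3.26% of all genes were higher. The log2 difference was 1.02 for TPT1 (SE 0.158, 95% CI 0.695 to 1.345, edgeR FDR 0.000593), 0.742 for GNB2L1 (SE 0.165, FDR 0.00902), 0.689 for NACA (SE 0.161, FDR 0.0122) and 0.698 for NAP1L1 (SE 0.193, FDR 0.0328). BTF3, at 0.474 (CI 0.122 to 0.826, FDR 0.101), was not called, and nor were NPM1 at 0.162 (CI -0.175 to 0.498) and VIM at 0.163 (CI -0.124 to 0.45).

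Without both replicate 3 libraries 3 of the 7 stayed called, where 9.99% of all genes were higher. TPT1 had 0.909 (FDR 0.000207), GNB2L1 0.624 (FDR 0.00753) and NACA 0.511 (FDR 0.00562), while NAP1L1 had 0.494 (FDR 0.0549) and BTF3, NPM1 and VIM had 0.29, 0.117 and 0.085 (FDR 0.157 to 0.738). The call of NAP1L1 was also lost after leaving out any one of 6 of the 24 libraries (FDR up to 0.0746). With the replicate block added to the fit without both replicate 3 libraries, NAP1L1 kept its call. The count fell to 1, TPT1, when the input libraries were left out of the fit and also when libraries were scaled by totals alone.

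Among the other TOP mRNAs the ratio was higher after CNOT1 knockdown for 31 of 47 large subunit, 20 of 32 small subunit and 8 of 10 translation factor mRNAs. Their medians were 0.84, 0.87 and 1.04, beside 0.689 for the 7 and 0.054 for all genes. Without both replicate 3 libraries the same counts resulted, with medians of 0.661, 0.646 and 0.954. PABPC1 had 1.346, EIF4B, an initiation factor that stimulates eIF4A, 1.3 and EEF1A1 1.178. Of the 18 TOP regulators 0 were called higher (median -0.059), and 2 were without both replicate 3 libraries (median 0.006).

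The paralogues of the members were followed as well. Of the 14, 2 had the pyrimidine start, NACA2 and PRPH, and NACA2 had no reads in any group. Whether the pyrimidine start bears on the values of members or paralogues was not tested. BTF3L4, the paralogue of BTF3, had a log2 fold change of 0.005 in subpolysomal RNA after CNOT1 knockdown and a ratio difference of 0.001 (95% CI -0.316 to 0.319). NAP1L4, the paralogue of NAP1L1, had 0.02 and 0.015 (CI -0.238 to 0.269). GNB1, a G protein beta subunit related to GNB2L1, was higher by 0.461 (edgeR FDR 0.00307) and its ratio difference was -0.565 (FDR 0.0343). Of the 12 paralogues tested, 1 was lower in subpolysomal RNA after CNOT1 knockdown, where 19.1% of all genes were. A higher ratio was called for 0 of the 12, where 3.26% of all genes had one. With only 12 genes these counts cannot show a departure from the all-gene shares. PRPH, which has the pyrimidine start, averaged 5.02 CPM in control and 1.8 CPM in CNOT1 siRNA subpolysomal RNA. Its log2 fold change there, -1.488, was the lowest of the 12 paralogues tested. Its ratio difference of 0.907 was the highest of them and was not called. Against total RNA, 4 of the 12 were lower in the eIF4A1 IP, where 26.5% of all genes were, and 6 of the 12 in the eIF4A2 IP, where 25.8% were. NAP1L4 had 0.03 and -0.087 in the eIF4A1 and eIF4A2 IPs, neither called. BTF3L4 had -0.231, not called, with eIF4A1 and was lower with eIF4A2 by -0.48 (FDR 0.0183). GNB1 had 0.048, not called, and was lower with eIF4A2 by -0.456 (FDR 0.0178). GNB2 was lower in both IPs, by -0.711 and -1.722, as was NACAD, the paralogue of NACA, by -1.401 and -1.385. The difference between a member and its paralogue was not tested.

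Ordered by level within the gradient experiment, with all 24 libraries included, TPT1 was highest in control subpolysomal RNA (mean 1920 CPM), then in CNOT1 siRNA subpolysomal RNA (941), control input (675), CNOT1 siRNA input (478), control polysomal (366) and CNOT1 siRNA polysomal RNA (364), and only the last 2 groups overlapped. For NACA the means ran from 1340 CPM (control subpolysomal) through 1200 (control polysomal), 1120 (CNOT1 siRNA polysomal) and 1050 (control input) to 795 (CNOT1 siRNA input) and 771 (CNOT1 siRNA subpolysomal). The 2 lowest groups of NACA overlapped each other and lay below all others. For BTF3 the order was control polysomal (873 CPM), CNOT1 siRNA polysomal (799), control input (705), control subpolysomal (650), CNOT1 siRNA input (546) and CNOT1 siRNA subpolysomal RNA (429), and the 2 lowest groups did not overlap any neighbour.

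GNB2L1 was highest in control subpolysomal RNA (3020 CPM), followed by control input (2190), control polysomal (2160), CNOT1 siRNA polysomal (2050), CNOT1 siRNA subpolysomal (1710) and CNOT1 siRNA input (1660). Its highest group did not overlap control input, nor did the CNOT1 siRNA polysomal group overlap the CNOT1 siRNA subpolysomal group, and the other neighbours in this order overlapped. NAP1L1 ran from 1120 CPM in control subpolysomal RNA through 928 (control input), 816 (control polysomal), 754 (CNOT1 siRNA polysomal) and 686 (CNOT1 siRNA input) to 639 (CNOT1 siRNA subpolysomal), with each neighbouring pair overlapping. NPM1 formed 2 tiers, with polysomal and input groups at means of 2150 to 2790 CPM and the subpolysomal groups at 1000 and 878 CPM. VIM also formed 2 tiers, at 445 to 503 CPM and at 239 and 205 CPM.

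**Figure D4:**
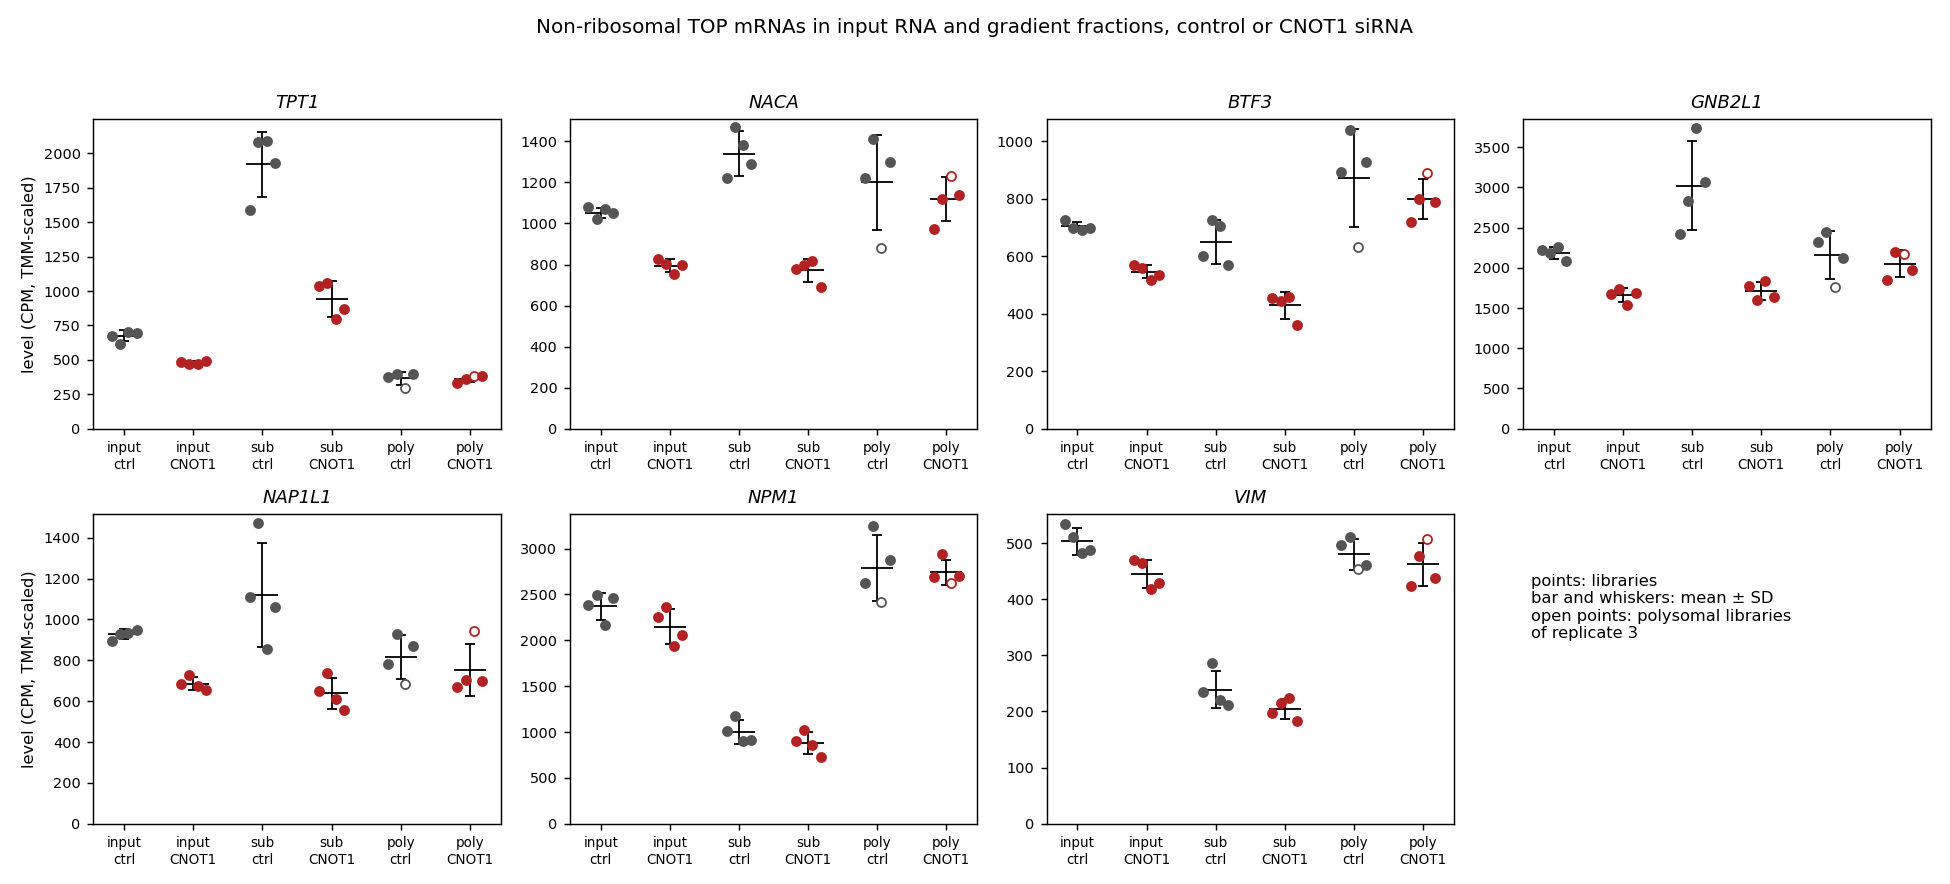
Level of each of the 7 mRNAs in the 24 gradient libraries, in CPM scaled by TMM factors (y axis, from 0), by group (x axis); each point is 1 library, and the bar and whiskers are the group mean and SD. Open points are the 2 polysomal libraries of replicate 3. TPT1 falls from 1920 CPM in control subpolysomal to 366 CPM in control polysomal RNA, whereas NPM1 rises from 1000 to 2790 CPM.

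After knockdown of TNRC6A and TNRC6B none of the 7 mRNAs was called. TPT1 had 549 and 578 CPM with control siRNA and 530 and 595 CPM with TNRC6A/B siRNA. NPM1 had 2330 and 2170 against 1930 and 1910 CPM, and VIM 634 and 409 against 676 and 510 CPM. GNB2L1 had 2560 and 1670 against 2180 and 1890 CPM. The control libraries of GNB2L1 and of VIM lay far apart. The log2 fold changes ran from -0.228 for NPM1 (95% CI -0.64 to 0.184) to 0.185 for VIM (CI -0.569 to 0.94), and that of TPT1 was -0.002 (CI -0.454 to 0.449). edgeR called 0 of the 7 and 0% of all genes, 0 of the 7 had an unadjusted p under 0.05, and DESeq2 called 0 of the 7. With 2 libraries per group the intervals were wide. The targeted genes were not called by edgeR either, at log2 fold changes of -1.801 for TNRC6A and -1.677 for TNRC6B. The lack of calls therefore cannot show that the 7 mRNAs were unchanged. Over all genes 289 had an unadjusted p under 0.05, and DESeq2 called 6 higher and 2 lower.

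Across the 12 groups, with each experiment centred on its own mean, the profiles of NACA and GNB2L1 (Pearson r 0.967), NACA and BTF3 (0.912) and NPM1 and VIM (0.967) were the most alike, and those of TPT1 and NPM1 (-0.315) and TPT1 and VIM (-0.167) ran against each other. These are descriptions over 12 group means that share libraries and controls. Measured against the mean profile of the 7, GNB2L1 ranked 4 of the 8827 genes with a mean of at least 10 CPM in each experiment, NACA 6, BTF3 7, NAP1L1 170, VIM 390, NPM1 708 and TPT1 3122. Each member is part of the mean it is ranked against, so high ranks of members are in part built in. The 5 genes outside the set with the profile most like that mean were RBM14 (r 0.9731), CS (0.9639), SLC25A3 (0.9637), LIN7A (0.9533) and SRP72 (0.9467). The 50 most similar genes held 4 ribosomal protein mRNAs and 2 translation factor mRNAs, EEF2 and EIF3E, out of 77 and 10 of these classes among the 8827.

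**Figure D5:**
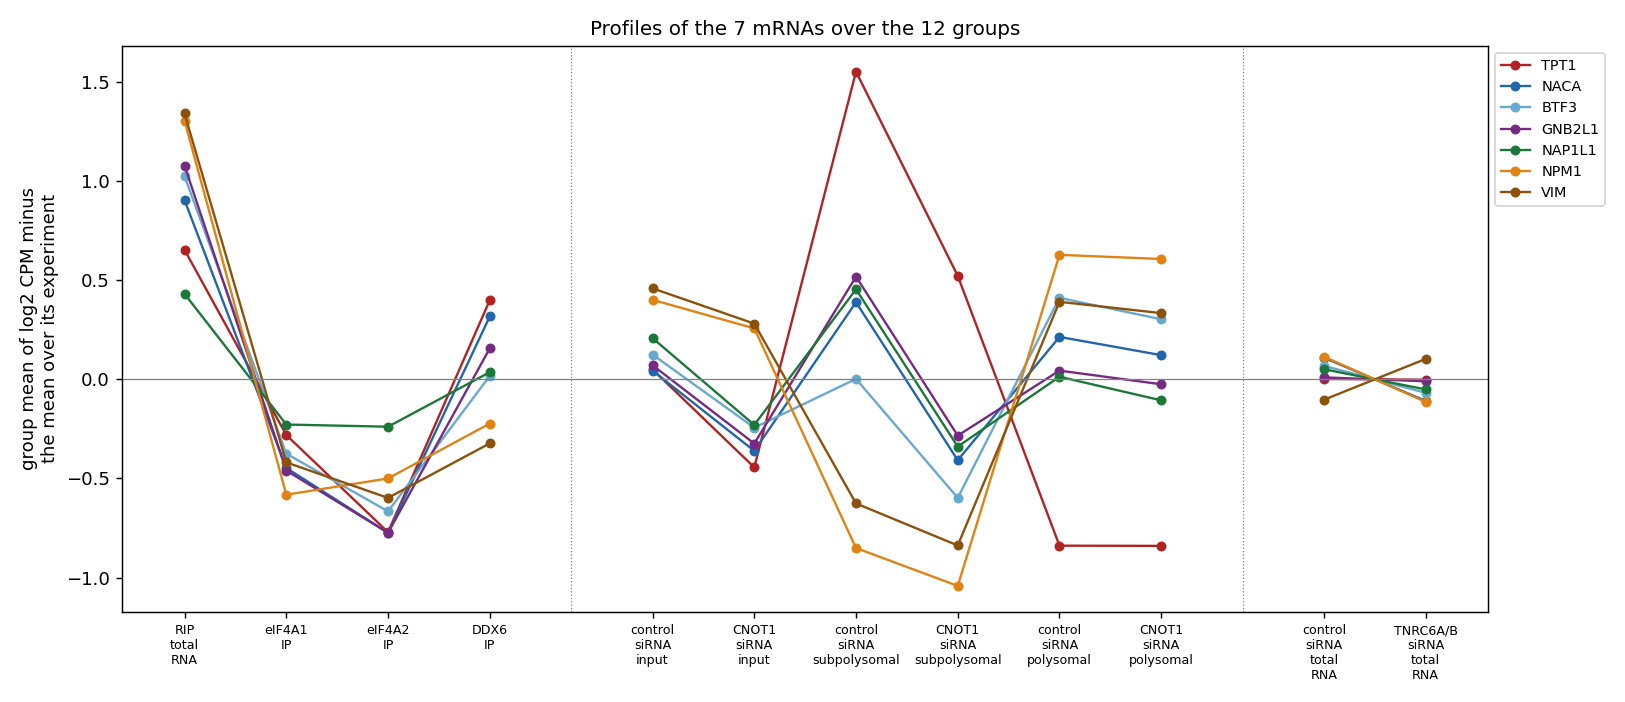
Group means of log2 CPM, each less the mean over the groups of its own experiment, for the 7 mRNAs (y axis) across the 12 groups (x axis); lines join points of a gene for legibility and imply no order. TPT1 stands at 1.552 in control siRNA subpolysomal RNA, where NPM1 stands at -0.851.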

How the data were processed

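RNA-Seq of 40 HEK293 libraries in 12 groups was used, with 15353317 to 46018900 counted reads per library. The authors aligned reads to hg19 with TopHat2 and deposited raw counts per gene symbol made with htseq-count, from stranded poly(A)-selected libraries. The annotation and the strand option are not given in the sources used here. A further deposited table holds the authors' own fold changes and p-values and was not used.

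Counts were tested with edgeR 4.0.16 (R 4.3.3, limma 3.58.1) by the quasi-likelihood test, with TMM scaling and filterByExpr, in 1 fit per experiment (17474, 16776 and 14064 genes tested). A call is a Benjamini-Hochberg FDR under 0.05 over all genes tested. DESeq2 1.42.0, RLE factors, library totals alone, no filter, the replicate number as a block, fits of the compared libraries alone, leaving out each library, and leaving out both polysomal libraries of replicate 3 were the alternatives. The scripts were tested on simulated data. Figures were drawn with matplotlib 3.10.9.

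The 7 members, and the lists of ribosomal protein, translation factor, regulator and paralogue genes, were chosen with earlier results of these data known. Beside the members, at most 4 genes per list and comparison were named, those with the largest absolute fold change among called genes whose libraries did not overlap, a paralogue wherever it stands beside its member, and the 5 genes outside the set with the most similar profile. A gene named for an IP against total RNA was given for the other IPs too, as PABPC1 was for the eIF4A2 IP. Sequences and positions come from the GENCODE annotation on GRCh37.

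Groups and replicate numbers come from the sample titles. The description of RIP total RNA replicate 3 gives it as replicate 2, which bears on the RIP pairing and block below. The labels do not say whether replicates were separate cultures, so p-values measure the spread between these samples, which may be technical. Same-numbered samples deviated together in all 6 RIP comparisons (correlations of 0.138 to 0.628, 3 pairs each), in input RNA (0.134 to 0.235, 4 pairs) and in subpolysomal RNA (0.469 to 0.629, 4 pairs) between the siRNAs, each above the limit of 0.1 used to call samples paired. They did not between polysomal and subpolysomal RNA, nor in polysomal RNA between the siRNAs (lowest -0.519, highest 0.154). These correlations included the polysomal libraries labelled replicate 3 that went against their labels, and were not computed without them.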

Additional observations from a re-analysis of the deposited data

Results flagged for a closer look

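Among the 42 sets of 4 gradient libraries of the 7 mRNAs, 2 held a library far from the others by Dixon's test, which flags about 1 in 20 by chance. BTF3 stood at 361.0 CPM in CNOT1 siRNA subpolysomal replicate 4, where the other 3 libraries lay at 443 to 458 CPM. NAP1L1 stood at 944.0 CPM in the library labelled CNOT1 siRNA polysomal replicate 3, where the others lay at 669 to 705 CPM.

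That library was also far from its group in the targeted gene, with CNOT1 at 631.0 CPM against 24 to 31.6 CPM in the other 3. In replicate 3 as labelled control siRNA polysomal, CNOT1 stood at 28.3 CPM against 470 to 501 CPM in the other 3. Both go against their labels.

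The polysomal to subpolysomal ratio differed between CNOT1 and control siRNA for TPT1 (log2 difference 1.02), GNB2L1 (0.742), NAP1L1 (0.698) and NACA (0.689), each by the interaction test.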

How the results depend on the processing

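Of 2163 values of single mRNAs under an alternative, 2062 kept their direction and their side of the threshold, 44 lost a call, 28 gained one and 29 changed sign. None of the 29 was called to begin with. The number of the 7 called moved by over 1.5 times as follows. Without the 2 libraries labelled polysomal replicate 3 it rose from 0 to 2 in polysomal RNA between the siRNAs, and to 3 with the replicate block as well. For the polysomal to subpolysomal ratio it fell from 4 to 1 with library totals alone, 2 without a filter on low counts and 1 with only the compared libraries. In input RNA it fell from 5 to 3 with library totals alone. Between the DDX6 and eIF4A1 IPs it rose from 0 to 2 with DESeq2, 1 without a filter and 3 with the replicate block, and between the eIF4A2 and eIF4A1 IPs from 0 to 1 with the block. The block alone changed no other call of the 7. With both replicate 3 libraries left out it also added VIM in input (-0.179) and subpolysomal RNA (-0.212) and GNB2L1 between the CNOT1 siRNA fractions (0.273). The cause was not tested.

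Leaving out 1 library at a time, the number called stayed at 7 in both eIF4A IPs against total RNA, at 4 between the eIF4A2 and DDX6 IPs, at 6 between the control fractions and at 5 in subpolysomal RNA between the siRNAs. It ran from 4 to 6 in the DDX6 IP against total RNA, 5 to 6 between the CNOT1 siRNA fractions, 2 to 5 in input RNA and 3 to 4 for the ratio, and stayed at 0 in the other 4 comparisons. With a TNRC6 library left out, the lone library of its group is assumed to vary like the other group.

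With library totals alone, NAP1L1 turned to 0.047 between the eIF4A2 and eIF4A1 IPs, VIM to -0.011 between the DDX6 and eIF4A1 IPs, GNB2L1 to -0.046 and NAP1L1 to -0.062 between the CNOT1 siRNA fractions, NPM1 to 0.092 and VIM to 0.069 in subpolysomal RNA between the siRNAs, TPT1 to 0.01 in polysomal RNA between the siRNAs, and NPM1 to -0.099 and VIM to -0.107 for the ratio. DESeq2 and RLE factors each turned NAP1L1 between the eIF4A2 and eIF4A1 IPs to 0.001 and TPT1 with TNRC6A/B siRNA to 0.036, and without a filter TPT1 turned there to 0.058 and GNB2L1 to 0.002. Leaving out 1 library gave ranges across 0 for NPM1 (-0.015 to 0.19) and NAP1L1 (-0.061 to 0.061) between the eIF4A2 and eIF4A1 IPs, for TPT1 (-0.096 to 0.035, and -0.117 without both replicate 3 libraries) and NPM1 (-0.092 to 0.053) in polysomal RNA between the siRNAs, and, with TNRC6A/B siRNA, for TPT1 (-0.081 to 0.088), GNB2L1 (-0.275 to 0.283), NAP1L1 (-0.276 to 0.12) and VIM (-0.046 to 0.526).

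Scaling by totals alone moved the median log2 fold change of all genes from 0.038 to 0.293 (eIF4A1 IP), 0.006 to 0.323 (eIF4A2 IP) and 0.009 to 0.158 (DDX6 IP) against total RNA, from -0.005 to 0.163 between the eIF4A2 and DDX6 IPs and from -0.007 to -0.114 between the DDX6 and eIF4A1 IPs, from -0.008 to -0.308 between the CNOT1 siRNA fractions, from -0.067 to 0.214 in subpolysomal RNA between the siRNAs and from 0.054 to -0.208 for the ratio. All-gene calls (higher and lower) changed with it from 4555 and 4638 to 6440 and 3104, from 4283 and 4509 to 6533 and 2852, from 3965 and 4079 to 5055 and 2991, from 1716 and 1969 to 2677 and 1144, from 14 and 2 to 9 and 3, from 5719 and 5817 to 4014 and 7476, from 2182 and 3212 to 4972 and 1188 and from 547 and 402 to 192 and 1983, in the same order, and in input RNA from 2245 and 2614 to 3378 and 1773.

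Other all-gene calls also moved by over 1.5 times. Between the eIF4A2 and eIF4A1 IPs 170 and 15 became 541 and 159 (DESeq2), 459 and 538 (no filter), 1245 and 1521 (replicate block) and 24 and 0 (compared libraries only). Between the DDX6 and eIF4A1 IPs 14 and 2 became 362 and 177, 130 and 102, 1062 and 668, and 0 and 0 in the same order. Between the eIF4A2 and DDX6 IPs the block gave 3232 and 3842. In input RNA the compared libraries alone gave 4848 and 4713. For the ratio DESeq2 gave 722 and 753, no filter 259 and 650, and the compared libraries alone 95 and 62, and without both replicate 3 libraries it was 1709 and 1285. In polysomal RNA between the siRNAs 0 became 3 and 43 without a filter, and with TNRC6A/B siRNA 0 became 20 and 3 without a filter, 6 and 2 with DESeq2 and 520 and 243 with the block, whose 2 pairs (correlation 0.821 each) were too few to be judged paired.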
